A study of Mus musculus with 27 samples.

Results

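The cells described here are the single-cell transcriptomes of 4 clones of mouse formative pluripotent stem cells (fPSCs), and each clone was set against the other clone of its own count table. A cell was a member when it carried the name of a clone and had 500 or more genes with a count. This held for 181 of the 182 cells deposited, of 192 cells planned as 48 per clone. There were 46 cells of clone 1, 45 of clone 2, 46 of clone 3 and 44 of clone 4. All cells were labelled wild type and were grown on Matrigel in N2B27 medium with Activin A, bFgf2 and XAV939, an inhibitor of tankyrase that lowers Wnt/β-catenin signalling. The labels do not name the parental line of the clones. Each side of a comparison is 1 clone, so cells are not replicates of a condition and no comparison between clones of a table was tested. Clone and culture cannot be told apart, nor can the block of primers if cell numbers follow the primer numbers. Intervals below are exact 95% intervals that cover counting error only. They take each count as independent, and are too narrow if the counts are reads, several of which can come from 1 molecule.

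Formative pluripotency is the state between the naive pluripotency of the early epiblast and the primed pluripotency of the later epiblast, when cells become competent to respond to cues for germ layers and germline. Otx2, a homeodomain factor, Dnmt3b, a de novo DNA methyltransferase, and Fgf5 are known markers of it. The same developmental interval is when DNA methylation is laid down over much of the genome while imprints, the parental methylation marks that leave 1 allele of a gene silent, are kept. Meg3 and Rian are known as maternally expressed RNAs and Kcnq1ot1 as a paternally expressed one.

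The cells of a table are named by clone and cell number, and a list of reverse transcription primers was deposited with the tables. It held 96 primers, each with an adapter, an 8-base cell barcode, 8 random bases and a run of 25 T. Cell numbers ran within 1 to 48 in clones 1 and 3 and within 49 to 96 in clones 2 and 4, which matches the numbering of the primers, although no source used here states that a cell's number is its primer's. The first primer of each block is shown to make this visible, with the cell barcode in capitals.
Primer 1: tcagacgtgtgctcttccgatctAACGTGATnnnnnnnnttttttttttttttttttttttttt
Primer 49: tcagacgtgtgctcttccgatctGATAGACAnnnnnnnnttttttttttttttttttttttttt
All 96 barcodes were distinct and any pair differed at 4 or more positions. Of the cell numbers, 86 occur in both tables. No source used here says whether the counts are molecules or reads. In clone 3 a pair of columns has the same name, with 4927 and 5185 counts, and neither enters the values at common depth.

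Depth differed among cells by far more than among clones. Counts per cell ran from 1125 to 197619 in clone 1, with a median of 19078, and from 1858 to 410142 in clone 2, with a median of 32356. In clone 3 they ran from 4927 to 722865 with a median of 33883, and in clone 4 from 2587 to 381107 with a median of 22634. To set clones side by side, each cell was drawn down at random to 9000 counts, which left 37, 36, 40 and 36 cells of clones 1 to 4. A gene's level is its summed count in these cells, also given as CPM (its count over the clone's total, scaled to 1000000), with totals of 333000, 324000, 360000 and 324000 counts. At this common depth clone 2 had more genes per cell than clone 1, with medians of 3208.5 and 2733, and the ranges of 2068 to 3599 and 1447 to 3561 overlapped. Clones 3 and 4 had medians of 2462 and 2589 genes. Without thinning, the medians were 3425, 4288, 3440.5 and 3348 genes. Mitochondrially encoded genes took a median of 4.62%, 4.22%, 4.42% and 4.66% of counts in the 4 clones.

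**Figure D1:**
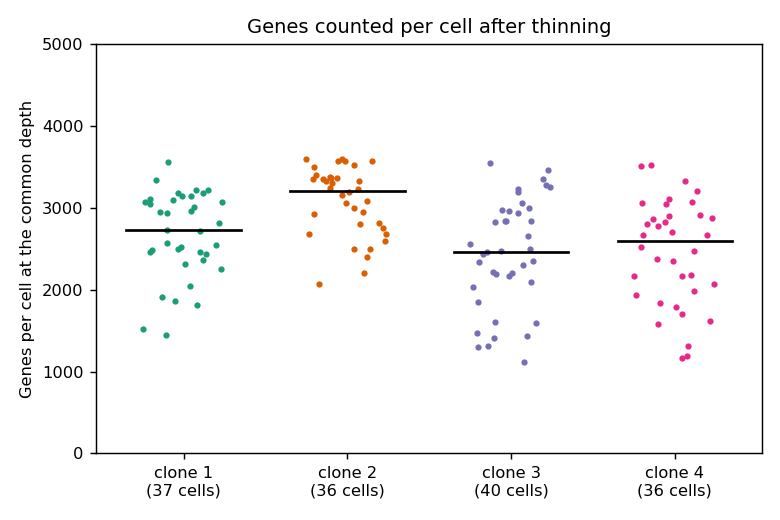
Genes with at least 1 count per cell after each cell was drawn down to 9000 counts, by clone; points are cells and bars are medians (2733, 3208.5, 2462 and 2589 genes). Clone 2 lies above clone 1, and the lowest cells of the 4 clones are at 1447, 2068, 1111 and 1166 genes.

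Defining markers fitted the label for the formative state, with gaps. Dnmt3b was counted in 37 of 37, 36 of 36, 40 of 40 and 35 of 36 thinned cells of clones 1 to 4. Otx2 was counted in 17 of 37, 24 of 36, 23 of 40 and 15 of 36 cells. The naive factor Esrrb was counted in at most 1 thinned cell of any clone, while Nanog, also a naive gene, was counted in 15 of 37, 18 of 36, 19 of 40 and 16 of 36 cells. Pou5f1, the core factor that these cells are known to depend on, was nearly uncounted: it had 3, 6, 58 and 8 counts in all kept cells of clones 1 to 4, and Sox2 had 33, 77, 77 and 68. Pou5f1 has near-identical copies elsewhere in the genome, and how reads with several matches were counted is not given in the sources used here. The counts of Pou5f1 are therefore not read as its level, and what lies behind the low counts of Sox2 was not tested. L1td1, Trim28, Sall4 and Tdgf1, the 4 core pluripotency genes with most counts, were each counted in 20 or more thinned cells of every clone. They were taken for their high counts, so their presence in many cells adds no support for the label.

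Clones 1 and 2 were much alike. Of 3055 genes with 50 or more thinned counts over both clones, 2279 (74.6%) differed by less than 1.5-fold, and the median log2 ratio of clone 1 over clone 2 was -0.03. At least 2-fold differences were seen for 262 genes (8.58%): 151 genes (4.94%) were higher in clone 1 and 111 (3.63%) were higher in clone 2. Most of these genes had few counts: among the 531 genes with 200 or more, 8 genes (1.51%) were past 2-fold. In 89 of the 262, fewer than 5 cells had the gene or 1 cell held over 25% of the higher clone's counts. Repeating the comparison in 9 other ways (other depths, weights, scalings, filters on cells, another random draw, or each gene without its top cell) left 47 genes past 2-fold in the same direction every time, 33 higher in clone 1 and 14 higher in clone 2.

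**Figure D2:**
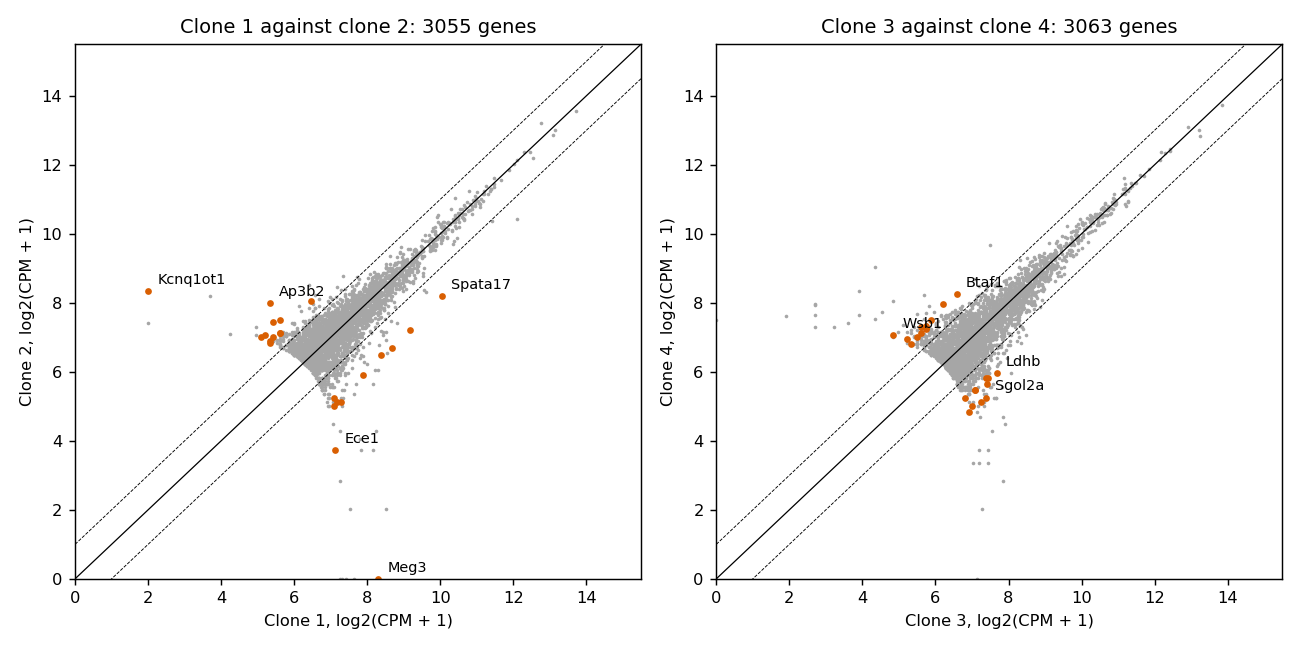
Level of each compared gene as log2(CPM + 1) in clone 1 against clone 2 (left, 3055 genes) and in clone 3 against clone 4 (right, 3063 genes). The solid line marks equal levels, dashed lines mark a 2-fold difference, orange points are the genes named by rule and reported here, and Meg3 and Kcnq1ot1 stand farthest from the line among those of clones 1 and 2.

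Among the genes that the naming rule takes, the widest ratios between clones 1 and 2 were those of a pair of noncoding RNAs made from imprinted loci. Meg3, a long noncoding RNA of the Dlk1-Dio3 locus that is made from the maternal chromosome, was counted in most cells of clone 1 and was not detected at this depth in clone 2. It had 105 thinned counts in 26 of 37 cells of clone 1 (lowest 0, median 2, highest 9 per cell) and 0 counts in 36 cells of clone 2. The level in clone 1 was 315 CPM (258 to 382). A count of 0 in clone 2 has exact upper limits of 11.4 CPM and of 9.74% of cells at this depth. The latter limits cells with a count and not cells that express the gene. With clone 2 set at 3 counts (9.26 CPM), Meg3 was 34.1-fold higher in clone 1. The exact interval for the ratio at a count of 0 starts at 27.2-fold. Without thinning, Meg3 had 538 counts in 36 of 46 cells of clone 1 and 4 counts in 4 of 45 cells of clone 2, each of them a lone count in its cell. Kcnq1ot1, the long noncoding RNA made from the paternal chromosome within Kcnq1, ran the other way. It had 1 thinned count in clone 1 and 104 in clone 2, there in 28 of 36 cells (lowest 0, median 2, highest 10 per cell). The levels were 3.00 CPM (0.076 to 16.7) and 321 CPM (262 to 389), a ratio of 107 with a counting interval of 18.8 to 4262. Without thinning it had 3 counts in 2 cells of clone 1 and 947 counts in 34 cells of clone 2. At 2 or more unthinned counts, Meg3 was found in 33 of 46 cells of clone 1 against 0 of 45 of clone 2. Kcnq1ot1 was found in 1 of 46 against 32 of 45. With these numbers at most 1 cell could have had both, and 0 did. In all 9 repeats both genes stayed past 2-fold, with a log2 ratio of 4.20 to 8.71 for Meg3 and of -7.80 to -4.17 for Kcnq1ot1. Kcnq1ot1 lies within Kcnq1 on the opposite strand, and no source used here says whether strand was used in counting. Kcnq1 itself had 1 and 36 unthinned counts in clones 1 and 2.

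The start regions of this pair of RNAs are shown because they had the widest differences by the naming rule, as RefSeq gives them on the GRCm38.p6 build, from 250 bases before to 50 bases after the start, with each CG in capitals. RefSeq gives 2 such windows for Meg3, of which 1 is shown.
Meg3, chr12:109540746-109541045, plus strand: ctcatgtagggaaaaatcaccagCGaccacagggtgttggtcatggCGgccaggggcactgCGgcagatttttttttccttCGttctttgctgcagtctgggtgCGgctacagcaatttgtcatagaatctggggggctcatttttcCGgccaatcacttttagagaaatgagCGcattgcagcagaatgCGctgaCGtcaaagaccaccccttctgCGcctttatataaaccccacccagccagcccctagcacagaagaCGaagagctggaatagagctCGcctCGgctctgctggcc
Kcnq1ot1, chr7:143296498-143296797, minus strand: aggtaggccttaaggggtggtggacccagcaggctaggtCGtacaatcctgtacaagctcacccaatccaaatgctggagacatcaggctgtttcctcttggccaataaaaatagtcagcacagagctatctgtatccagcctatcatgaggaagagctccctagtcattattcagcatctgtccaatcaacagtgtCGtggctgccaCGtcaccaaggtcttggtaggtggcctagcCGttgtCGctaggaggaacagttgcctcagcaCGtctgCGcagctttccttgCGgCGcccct
The Meg3 window holds 13 CG and the Kcnq1ot1 window 9, beside a median of 7 over 32851 windows of this length. As many or more are held by 37.9% and 45.8% of all windows. The Meg3 window also holds 1 match to TGACGTCA, the cyclic AMP response element, read on both strands since the motif is its own reverse complement. That motif is present in 1.79% of all windows. These are descriptions of the reference sequence, and methylation of these starts in the clones was not analysed here.

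Other genes of the same loci were counted as follows. Rian, a small nucleolar RNA host transcript downstream of Meg3, had 52 thinned counts in 11 of 37 cells of clone 1 and 0 in clone 2, with 1 cell holding 36.5% of the counts. Mirg, the microRNA host transcript beyond it, had 8 and 0. Unthinned, Rian had 290 counts in 21 cells of clone 1 and 2 counts in 2 cells of clone 2. In clone 1, 12 cells had 2 or more counts of both Meg3 and Rian, of 33 with Meg3 and 15 with Rian, while no cell of clone 2 reached 2 counts of either. Dlk1 and Rtl1, the protein-coding genes of that locus that are made from the paternal chromosome, are not listed in the table of clones 1 and 2. Near Kcnq1ot1, Phlda2, a maternally expressed regulator of placental growth, had 16 thinned counts in 7 cells of clone 1 and 0 in clone 2 (60 counts in 9 cells against 1 count without thinning). Cdkn1c, a maternally expressed inhibitor of the cell cycle, was at 0 in both thinned clones, and Cdkn1c gave 2 and 0 counts without thinning. The neighbours Nap1l4 (45 and 38) and Cars (50 and 66) were counted in both clones. Phlda2 and Mirg fall under the minimum of 50 counts and were not compared.

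Imprinted genes elsewhere differed less, apart from a few with low counts. Of 30 genes on the imprinted list, 27 are listed in the table and 9 had enough counts, of which Meg3 and Rian were past 2-fold higher in clone 1 and Kcnq1ot1 in clone 2. These are 3 genes of 9, where 8.58% of all compared genes were past 2-fold in either direction. The median log2 ratio of the 9 was -0.10, beside -0.03 for all genes compared. Gnas, a G protein subunit, had 206 and 241 thinned counts. Snrpn, a splicing protein gene of the Prader-Willi locus, had 95 and 79. Impact, a regulator of translation, had 70 and 97, and Mest had 71 and 74. These 4 genes lay between log2 ratios of -0.51 and 0.23. Peg3, a zinc finger gene, had 25 and 44 counts, a log2 ratio of -0.86 (-1.62 to -0.12). Nnat, under the count minimum, had 13 thinned counts in 7 cells of clone 1 and 0 in clone 2. Genes of DNA methylation were also counted. Dnmt3b, which lays it down, had 561 and 630 counts, Uhrf1, which helps to keep it, had 86 and 91, and Tet1, a dioxygenase that oxidises it, had 89 and 84. Dnmt3a, the other de novo enzyme, had 64 and 105, a log2 ratio of -0.75 (-1.23 to -0.29).

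**Figure D3:**
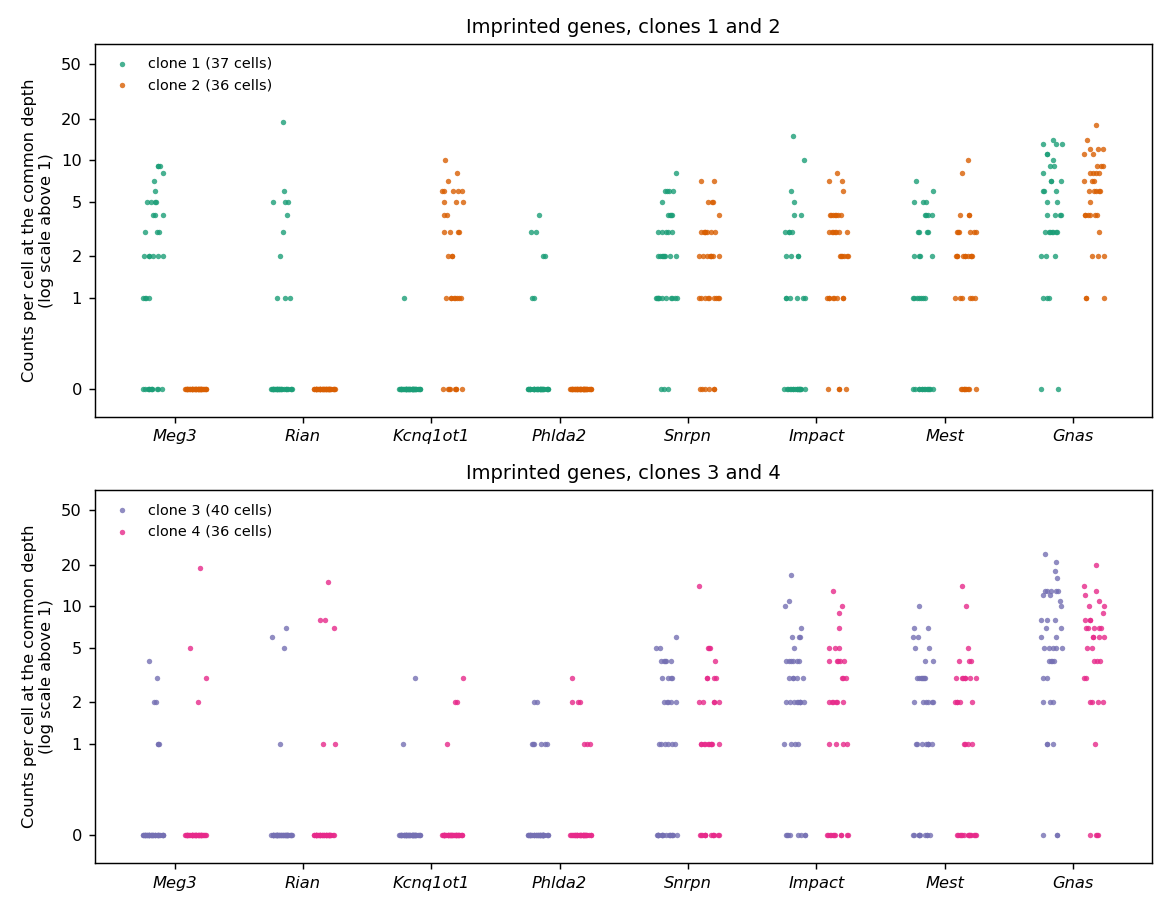
Counts per cell of 8 imprinted genes after each cell was drawn down to 9000 counts, on an axis that is logarithmic above 1; points are cells, with clones 1 and 2 (37 and 36 cells) above and clones 3 and 4 (40 and 36 cells) below. Meg3, Rian and Phlda2 are at 0 in all cells of clone 2 and Kcnq1ot1 is at 0 in all but 1 cell of clone 1, while Snrpn, Mest and Gnas were counted in most cells of both and Impact in 20 of 37 and 32 of 36 cells.

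A further set of genes, each counted in 25 or more of the 37 cells of clone 1, had higher summed counts there than in clone 2, and it moved with the number of genes per cell. Nkain2, a gene for a membrane protein, had 1458 thinned counts in 37 of 37 cells of clone 1 (lowest 2, median 25, highest 139) and 445 in 36 of 36 cells of clone 2 (lowest 1, median 11, highest 35). Spata17 had 351 counts against 94, a ratio of 3.63 (2.89 to 4.61). Fah, the last enzyme of tyrosine breakdown, had 192 against 48, a ratio of 3.89 (2.82 to 5.46). The noncoding genes Gm12022 and Gm13483 had 135 against 33 and 111 against 29. Together with Dgkb, Kcnma1 and Lnpep these were taken from the genes of the 33 above that had counts in 25 or more cells of clone 1, leaving out Meg3, a set put together after their values were seen. Summed over the 8 genes, a cell of clone 1 had 8 to 270 counts with a median of 46, and a cell of clone 2 had 4 to 56 with a median of 17.5, so the ranges overlapped. The sum tended to be higher in cells with fewer genes. Spearman's rho between the sum and the genes per cell was -0.63 over 37 cells of clone 1 and -0.77 over 36 of clone 2, a description across cells of 1 table at 1 depth. In cells with under 2500 genes the 8 genes took 1.35% of counts in 14 cells of clone 1 and 0.484% in 5 cells of clone 2, and in cells with 2500 to under 3500 genes they took 0.495% in 22 cells and 0.222% in 25 cells. The 8 genes were chosen as higher in clone 1, so neither their sum nor these shares add support for that direction. The part that the lower number of genes per cell in clone 1 has in these ratios was not tested. Meg3 did not share this pattern: its rho with genes per cell in clone 1 was 0.31, and its rho with Nkain2 was -0.39.

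**Figure D4:**
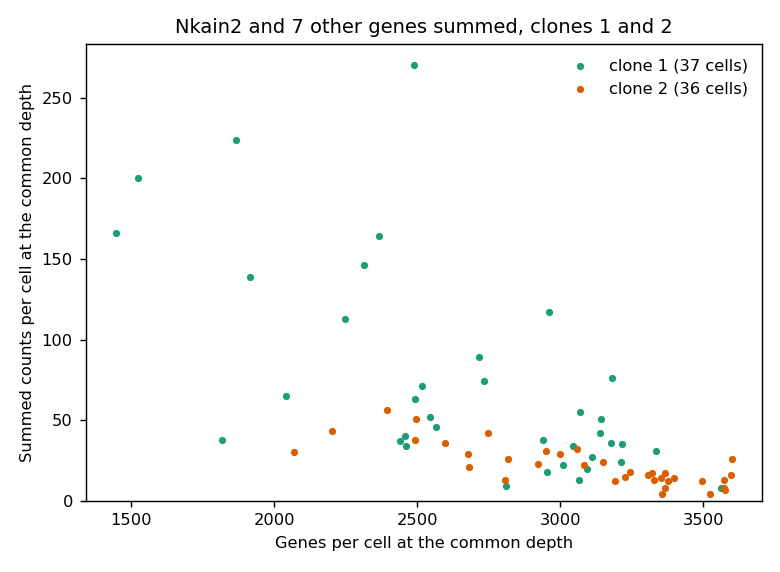
Summed counts of Nkain2 and 7 other genes per cell at 9000 counts, against the genes counted in that cell, for clone 1 (37 cells) and clone 2 (36 cells). Sums of over 100 are found only in clone 1, and in each clone the sum tends to be lower where more genes were counted. The genes were chosen as higher in clone 1.

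The naming rule leaves out genes with over 25% of their counts in 1 cell. Some of them, picked after their values were seen, also had wide ratios in all 9 repeats, in both directions. Trh, the precursor of thyrotropin-releasing hormone, had 61 thinned counts in 16 cells of clone 1 and 1 in clone 2, and Gm13598 had 121 counts in 7 cells and 1. The other way, Tmem44 had 1 count in clone 1 and 55 in 2 cells of clone 2, and Unc13c had 4 counts and 94 in 3 cells. Other genes named by rule in clones 1 and 2 had fewer counts than most of those above. Higher in clone 1 was Ece1, the protease that activates endothelin, with 46 counts in 16 cells against 4 in 4 cells, a ratio of 11.2 (4.09 to 42.8). Cd59a, an inhibitor of complement, had 51 against 11. The other genes of this direction were N4bp2, 1110002L01Rik, Heatr5a and Nbr1, an autophagy receptor, at 3.65- to 4.38-fold. Higher in clone 2 was Ap3b2, a subunit of a vesicle adaptor, with 82 counts in 16 cells against 13 in 7 cells, a ratio of 6.48 (3.59 to 12.7). Setbp1 had 56 against 14 and Pold1, the catalytic subunit of DNA polymerase delta, had 41 against 11, but its log2 ratio was 0 at a depth of 4500 counts. Mki67, the nuclear protein of proliferating cells, had 85 counts in 26 cells against 29 in 16. Snw1, Lpcat3, Dnajc15, Fam76b, Cnot3, Elof1 and Plrg1 were 2.89- to 3.73-fold higher. Of the genes named here as higher in clone 1, N4bp2 and Nbr1 fell under 2-fold in at least 1 of the 9 repeats and the others held in all. Of the 12 named by rule as higher in clone 2, Kcnq1ot1, Ap3b2, Lpcat3 and Cnot3 held in all.

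No formative or core pluripotency gene that could be compared was past 2-fold between clones 1 and 2. For the 10 formative genes this is near the share over all genes (8.58%), with a median log2 ratio of -0.17. Utf1 had 97 and 121 counts, Fgf5 78 and 75, and Lin28b, a blocker of let-7 maturation, 59 and 76. The 7 core genes compared included L1td1 at 246 and 234 and Trim28, a corepressor that also guards imprints, at 197 and 187. Nanog, the naive gene with most counts, had 34 and 50 counts, a log2 ratio of -0.60 (-1.27 to 0.06). Markers of other states stayed at a few counts. Primitive streak, endoderm, neural and trophoblast lists had 43 and 44, 22 and 19, 25 and 29, and 20 and 18 summed counts in clones 1 and 2, with no member reaching 50. The primed and early lineage list, also with no member reaching 50, was less even at 18 and 6. Its log2 ratio was 1.55 (0.15 to 3.17), and 1 cell of clone 1 held 10 of the 18 counts. Eomes had 17 and 15 counts, Foxa2 11 and 7, and T (brachyury) 0 and 1. None of the 12 genes of the 2-cell-like list is listed.

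Signalling readouts showed differences in a few members. Over all compared genes of clones 1 and 2, 8.58% were past 2-fold in either direction. Of the 5 Nodal and Activin targets compared, Lefty1, an inhibitor of Nodal that Nodal itself induces, was lower in clone 1, with 34 counts in 14 cells against 77 in 21, a log2 ratio of -1.22 (-1.85 to -0.62). Tdgf1, the Nodal co-receptor, had 66 and 58. Of the 7 FGF and ERK genes, Spry2, a feedback inhibitor of the pathway, was higher in clone 1 at 52 against 23 (log2 ratio 1.14, 0.40 to 1.91). Fgf15 had 41 against 10, but 1 cell held 58.5% of the counts in clone 1. The 3 Wnt targets with enough counts, Ccnd1, Lef1 and Znrf3, were between log2 ratios of -0.14 and 0.42.

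Metabolic, cell cycle and stress lists held most of the other members past 2-fold, a ratio that 8.58% of all compared genes reached. The glycolysis list had 1442 counts in clone 1 and 1832 in clone 2, a log2 ratio of -0.38, with a median over 10 genes of -0.35. Ldha, which makes lactate, had 447 and 674, and Tpi1, a triose isomerase, had 48 and 113, the only member past 2-fold. G2 and M phase genes had 3543 and 3920 counts, and 3 of 43 were past 2-fold, a share close to the 8.58% over all genes. All 3 were higher in clone 2 (3.63% of all genes): Mki67, Hmmr and Aurkb. S phase genes, 35 of which were compared, had 2907 and 2761 counts. Past 2-fold were Cdc6, higher in clone 1 (45 and 21, 1 cell holding 33.3%), and Mcm6, higher in clone 2 (43 and 89). Of the 5 immediate early and heat shock genes, 3 were past 2-fold, all higher in clone 1, as were 4.94% of all genes: Hsph1, a chaperone, had 114 and 46, Ier2 51 and 22, and Myc 35 and 15. Of the 3 p53 targets, Mdm2 had 41 and 19. Cholesterol synthesis genes, 15 of which were compared, had 1310 and 1345 counts and no member past 2-fold. Of the members past 2-fold named in this and the preceding paragraph, Lefty1 held in all 9 repeats and the others fell under 2-fold in at least 1. Clone 1 had fewer genes per cell than clone 2, and the part this has in these shifts was not tested.

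In lists for other cell types and the germline, 1 cell held much of the counts of some genes. Loxl1, a lysyl oxidase of the fibroblast list, had 101 counts against 6, and 1 cell of clone 1 held 56.4% of them. It stayed past 2-fold in all 9 repeats, also without the top cell of each clone, with a log2 ratio of 3.10 to 4.70. Still, cells of clone 1 with 57, 18 and 11 counts held most of the 101. Without thinning Loxl1 was counted in similar numbers of cells, 19 of 46 in clone 1 and 17 of 45 in clone 2, with 383 and 47 counts. Col1a1 and Col1a2 had 6 and 4 counts against 1 and 1. Ddx4, a germ cell helicase, had 31 counts in 3 cells of clone 1, with 87.1% in 1 cell, and 1 in clone 2. Stk31 had 24 counts in 8 cells of clone 1 and 0 in clone 2, while without thinning it had 86 counts in 12 cells and 39 in 7 cells. Y-linked genes were counted in both clones: Ddx3y had 90 and 70 counts, Uty 31 and 41, and Eif2s3y 59 and 27, of which 1 cell of clone 1 held 32.2%.

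Clones 3 and 4 were also much alike, and many of their differences lay in few cells. Of 3063 genes compared within their table, 2148 (70.1%) differed by less than 1.5-fold and the median log2 ratio of clone 3 over clone 4 was 0.01. At least 2-fold differences were seen for 336 genes (11.0%): 172 (5.62%) were higher in clone 3 and 164 (5.35%) in clone 4. In 166 of these the gene was in fewer than 5 cells of the higher clone or 1 cell held over 25%. Among the 582 genes with 200 or more counts, 1 gene (0.172%) was past 2-fold: Bad, a promoter of apoptosis, named after its value was seen, with 64 counts in 7 cells of clone 3 and 265 in 12 cells of clone 4. Of the 336, 33 held in all 9 repeats, 16 higher in clone 3 and 17 higher in clone 4. Only Sdha, the flavoprotein subunit of succinate dehydrogenase, was both among these and counted in 25 or more cells of its higher clone, with 127 counts in 28 of 40 cells of clone 3 and 43 in 17 of 36 cells of clone 4. Sdha too was picked out after its value was seen.

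Genes named by rule in clones 3 and 4 differed 2.85- to 4.78-fold. Sgol2a, a protector of centromeric cohesin, had 60 counts in 16 cells of clone 3 and 12 in 9 cells of clone 4, a ratio of 4.50 (2.40 to 9.19). Parn, a poly(A) ribonuclease, had 46 counts in 14 cells against 10 in 3 cells. Ldhb, the lactate dehydrogenase subunit of aerobic tissues, had 73 in 23 cells against 20 in 11. Also higher in clone 3 were Hn1l, Tpst1, Aff4, Pank3, Pithd1, Siah1a, Atic and Dmtf1, of which Hn1l and Siah1a changed direction at a depth of 4500 counts. Higher in clone 4 was Wsb1, a ubiquitin ligase subunit, with 43 counts in 12 cells against 10 in 8 cells, a ratio of 4.78 (2.36 to 10.7). Zfp638 had 81 counts in 22 cells against 26 in 12 cells, a ratio of 3.46 (2.20 to 5.61). Btaf1, a regulator of TATA-binding protein, had 99 in 25 cells against 34 in 16, and Braf, a kinase of the ERK pathway, had 58 against 21. The rest were Pias2, Sucla2, Cdc27, Stk4, Snw1, Nudt19, Ppp2r4 and Rev3l. All 9 repeats kept Sgol2a, Tpst1 and Parn on one side and Zfp638 and Pias2 on the other, and the others named here fell under 2-fold in at least 1 of them.

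The imprinted noncoding RNAs were patchy in both clones 3 and 4. Meg3 had 14 thinned counts in 7 of 40 cells of clone 3 and 29 in 4 of 36 cells of clone 4, of which 1 cell held 65.5%. Meg3 is thus under the minimum of 50 counts in this table and was not compared. Rian had 19 counts in 4 cells and 40 in 6 cells, a log2 ratio of -1.23 (-2.10 to -0.40) that turned to 0.82 in cells with 2000 or more genes. Kcnq1ot1 had 4 counts in 2 cells and 8 in 4 cells, and Phlda2 had 10 in 8 cells and 12 in 7. At 2 or more unthinned counts, Kcnq1ot1 was in 1 cell of clone 3 and 6 cells of clone 4. Of these, 1 and 2 also had 2 or more counts of Meg3. Without thinning, 2 or more counts of Meg3 were in 5 of 46 cells and 7 of 44 cells, with up to 226 and 120 counts in a cell. Thus in each of these clones a minority of cells held most of the Meg3 counts. Those cells did not share 1 depth: the median counts per cell with and without 2 or more Meg3 were 53177 and 26216 in clone 3 and 12838 and 22719 in clone 4. Of the 8 imprinted genes compared, Rian alone was past 2-fold, near the 11.0% over all genes, and Gnas (295 and 219), Impact (129 and 99), Mest (95 and 76) and Snrpn (64 and 65) were close.

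Between clones 3 and 4, 1 formative and 1 core pluripotency gene were past 2-fold, near the 11.0% over all genes. Of 11 formative genes compared, Sall2, a zinc finger factor, was past 2-fold with 47 counts in 8 cells of clone 3 and 14 in 9 cells of clone 4, with 1 cell at 38.3%. Counts of clone 3 come from a larger total, 360000 against 324000, so ratios are given beside them. Dnmt3b had 700 and 649 (log2 ratio -0.04), Fgf5 94 and 91 (-0.11), Utf1 101 and 75 (0.28) and Zic5 65 and 79 (-0.43). The median log2 ratio of the 11 formative genes was -0.04. Of 7 core genes, Zscan10 was past 2-fold with 37 and 16. Nanog had 61 and 41 counts. Tet1, the 5-methylcytosine dioxygenase, was lower in clone 3, with 61 counts in 23 cells against 115 in 24, a log2 ratio of -1.07 (-1.54 to -0.61), while Uhrf1 had 102 and 71 and Dnmt3a 92 and 79. The endoderm factor Foxa2 had 31 counts in 8 cells and 32 in 7 cells, and primitive streak genes summed to 56 and 74.

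Signalling and housekeeping lists in clones 3 and 4 leaned to clone 3 in parts. Over all compared genes of these clones, 11.0% were past 2-fold in either direction. BMP targets had 118 and 58 summed counts, a log2 ratio of 0.87, with Id2 at 39 and 12, but the Id2 ratio turned to -0.15 with another random draw and to -1.0 without thinning. Nodal and Activin targets had 376 and 256, with Skil, a SMAD corepressor, at 94 and 44 and Lefty1 at 77 and 54. Spry2 was at 56 and 25, past 2-fold. Epithelial and apical polarity genes had 787 and 548 counts, a log2 ratio of 0.37, with Cdh1, E-cadherin, at 264 and 148 and no member past 2-fold. The glycolysis list was even at 1883 and 1692, a log2 ratio of 0.00, although Ldhb was past 2-fold. Dhcr7, the last enzyme of cholesterol synthesis, had 60 and 13 counts with 1 cell at 50%. Shmt2, of mitochondrial folate metabolism, had 84 counts in 24 cells and 30 in 11 cells. Of 43 G2 and M phase genes, Nusap1 and Cdca2 were past 2-fold higher in clone 3, close to the 5.62% over all genes, and of 35 S phase genes Ung was higher in clone 3 and Prim1 and Cdca7 in clone 4. Of these, Cdca2 and Ung changed direction at a depth of 4500 counts and Prim1 without thinning. Stk31, of the germline list, had 60 counts in clone 4, of which 1 cell held 98.3%, against 7 in clone 3, and its direction turned without that cell. Each list member past 2-fold between clones 3 and 4 fell under 2-fold in at least 1 of the 9 repeats.

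**Figure D5:**
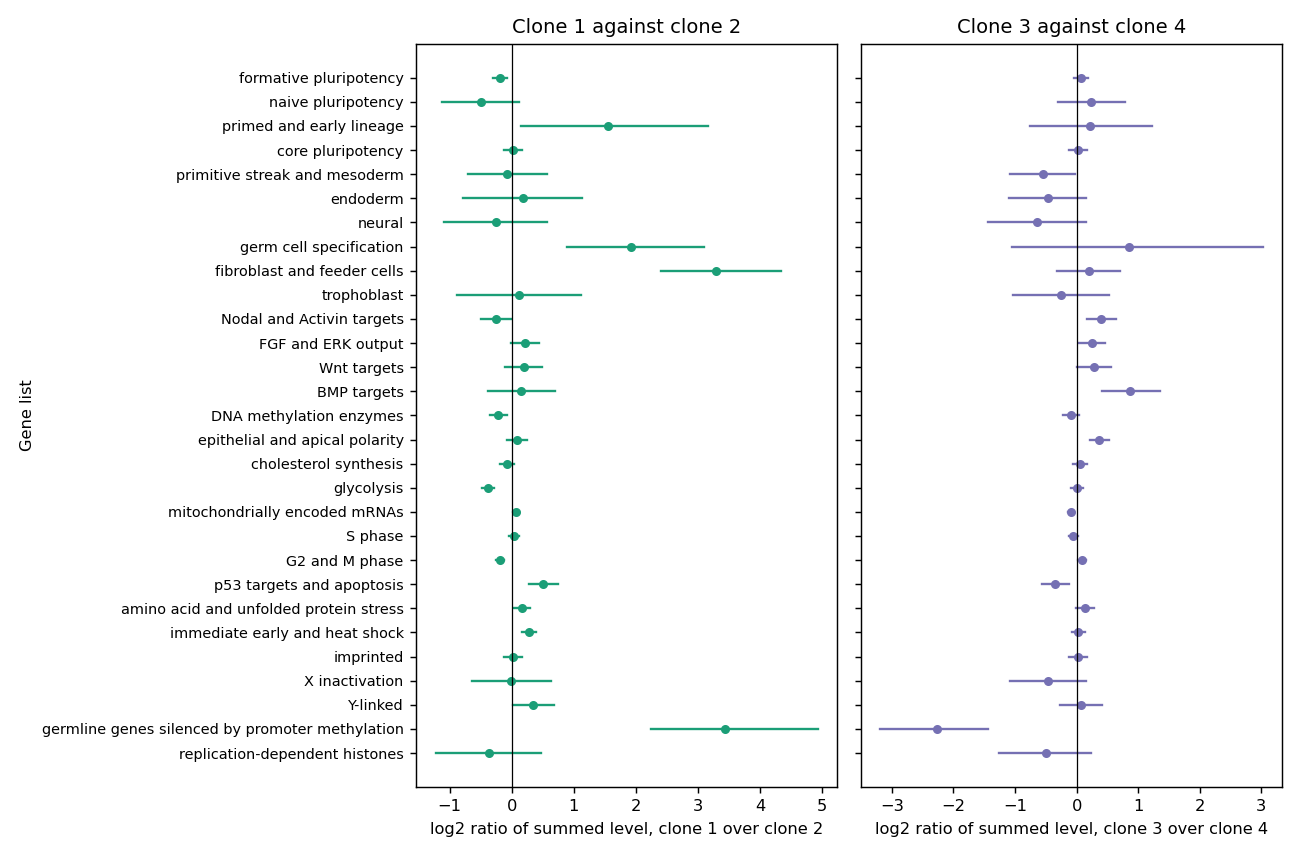
Log2 ratio of the summed level of each gene list, clone 1 over clone 2 (left) and clone 3 over clone 4 (right); points are ratios and bars are exact 95% intervals for counting error only. For clones 1 and 2 the germline, fibroblast and germ cell lists lie farthest out, with 87.1% of Ddx4 and 56.4% of Loxl1 in 1 cell of clone 1, and for clones 3 and 4 the germline list does, with 98.3% of Stk31 in 1 cell of clone 4. Loxl1 stayed past 2-fold without the top cell of each clone, but without thinning it was counted in 19 of 46 cells of clone 1 and 17 of 45 of clone 2.

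Over all compared genes, cells of a clone resembled each other about as much as they resembled cells of the other clone. The mean Pearson correlation of log2 values (thinned counts per 10000, plus 1) was 0.395 within clone 1, 0.442 within clone 2 and 0.413 between them. It was 0.385 within clone 3, 0.398 within clone 4 and 0.392 between them. The mean within clones exceeded the mean between clones by 0.00515 in the table of clones 1 and 2 and by -0.00062 in the table of clones 3 and 4, beside an SD of 0.0459 and 0.0575 over pairs of cells from different clones. These are descriptions over 3055 and 3063 genes in cells of equal depth. Shares of counts by chromosome, read from the mouse NCBIM37 annotation and without mitochondrial genes, were also close. Over the 19 autosomes the log2 ratio ran from -0.10 (chromosome 19) to 0.06 (chromosome 13) for clone 1 over clone 2 and from -0.04 (chromosome 14) to 0.06 (chromosome 19) for clone 3 over clone 4, and the interquartile ranges of the cells overlapped for all 19 in both. The X chromosome took 3.23% (3.17 to 3.30) and 3.27% (3.20 to 3.33) of counts in clones 1 and 2, and 3.25% (3.19 to 3.31) and 3.45% (3.38 to 3.52) in clones 3 and 4. These shares describe RNA and do not count chromosomes.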

How the data were processed

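Single cells of 4 fPSC clones were picked by mouth pipette after TrypLE digestion and made into Smart-seq2 libraries. The authors deposited 1 table of counts per gene and cell for clones 1 and 2 and another for clones 3 and 4, made with Drop-seq_tools. The submitters' processing notes also name mm9, cutadapt 1.11, TopHat2 2.1.1, Bowtie2 2.2.2, Cufflinks 2.1.1, STAR and Trim Galore, with no role. Whether the deposited counts are molecules or reads, and whether strand was used, is not given in the sources used here. The tables list 16299 and 16176 genes, and no row lacked a gene name.

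Cells with 500 or more genes were kept, and their depths are given with the results. Each cell was drawn without replacement to 9000 counts, the largest multiple of 1000 that at least 80% of the kept cells of every clone reached. Counts were summed per clone and divided by the clone's total. Genes with 50 or more thinned counts over both clones of a table were compared, and a ratio of 2 or more counts as past 2-fold. A clone at 0 was given 3 counts, summed over the clone. Intervals are exact (Clopper-Pearson, conditional on the sum for ratios) at 95%. With 1 clone per side there is no test. Genes were not compared across the tables. Doublets were not called, since cells were picked singly. Genes were named by rule: in each table and direction the 12 with the largest ratio that were counted in 5 or more cells of the higher clone with no cell over 25% of its counts, and in each of 30 gene lists the 4 members with most counts and any member past 2-fold. Some genes that the rule names are not reported here. Other named genes were picked after their values were seen. The clones, lists and rules were chosen with earlier results of these data known. Alternatives were unthinned counts, a depth of 4500, mean CPM over cells, another random draw, cells with 2000 or more genes, other count minimums, edgeR TMM factors, DESeq2 size factors and each gene without its top cell. Cells with 2000 or more genes at the common depth were an alternative added after seeing the data. The scripts were tested on simulated data. Python 3.11.15, numpy 2.4.6, scipy 1.17.1, pandas 2.3.3, R 4.3.3, edgeR 4.0.16 and DESeq2 1.42.0 were used.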

Additional observations from a re-analysis of the deposited data

Results flagged for a closer look

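The median number of genes per cell without thinning was 4288 in clone 2, beside 3425, 3440.5 and 3348 in clones 1, 3 and 4. It stood apart from the other 3 clones by a Dixon gap test, which was run on 7 measures over the 4 clones. Chance alone trips this test in about 1 of 20 groups for each measure, and so more often over all 7. At the common depth of 9000 counts the medians were 2733, 3208.5, 2462 and 2589 and no clone stood apart by that test. Clones 1 and 2 are in another table than clones 3 and 4.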

How the results depend on the processing

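No paired analysis was possible because each side of a comparison is 1 clone and the comparisons come from no test. For the same reason no clone could be left out. The number of genes past 2-fold followed the counts behind each gene. At a depth of 4500 counts it was 87 for clones 1 and 2 (53 higher in clone 1, 34 in clone 2) and 125 for clones 3 and 4 (67 and 58), with fewer genes compared. With a minimum of 20 counts it was 1094 (538 and 556) and 1311 (701 and 610), and with no minimum 3027 (1319 and 1708) and 3227 (1574 and 1653). By mean CPM over cells, 69 genes were higher in clone 2 than in clone 1. In cells with 2000 or more genes at the common depth, 173 were past 2-fold in clones 3 and 4 (99 and 74). Another random draw gave 258 and 334 genes, of which 118 and 178 were among the 262 and 336 reported. Directions turned at a depth of 4500 for Cdca2 (log2 ratio -0.43), Hn1l (-0.0572), Siah1a (-0.00571) and Ung (-0.45). Without thinning they turned for Hn1l (-0.10), Id2 (-1.0) and Prim1 (0.34), with another draw for Id2 (-0.15), by mean CPM for Ung (-0.11) and without the top cell for Stk31 (1.85). In cells with 2000 or more genes they turned for Prim1 (0.0800) and Rian in clones 3 and 4 (0.82), and with that limit at the common depth for Prim1 (1.65) and Rian (2.33). The cause of these turns was not tested. Of 1764 values of single genes under the alternatives, 1547 stayed within their interval, 203 moved and 14 turned. The 1547 include 196 under TMM factors and 196 under DESeq2 factors. These factors shift all ratios of a table alike and only slightly, so those values had little room to move. In clones 1 and 2, TMM and DESeq2 factors left 161 and 162 genes higher in clone 1 and 97 higher in clone 2 under both. Without the top cell of each clone, 130 genes were higher in clone 1 and 160 in clone 2, and without thinning 238 were higher in clone 3 and 125 in clone 4.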

Other observations

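Some genes under the minimum of 50 counts also differed in the number of cells, and these were picked after their values were seen. Acer2, an alkaline ceramidase, had 6 unthinned counts in 2 of 46 cells of clone 1 and 266 in 23 of 45 cells of clone 2. Platr10, a noncoding RNA, had 3 counts in 1 cell of clone 1 and 159 in 20 cells of clone 2. Tnfrsf26, a neighbour of Kcnq1ot1 that passed the minimum, had 142 counts in 2 cells of clone 1 and 1 in clone 2.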
